A study of Mus musculus with 13 samples.

Results

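Transcripts of 10 genes of actin cytoskeleton remodelling were followed in mouse liver. They are the cytoplasmic actins Actb and Actg1, the binders of actin monomers Pfn1, Tmsb4x and Tmsb10, the filament-severing cofilin Cfl1, the filament-capping Capg, the Arp2/3 subunit Arpc1b, the filament-binding transgelin Tagln2 and the intermediate filament protein Vim. These 10 of the 23019 genes listed in all 3 count tables were chosen by what their proteins do and with earlier results of these libraries known, differences between ligated and unligated livers among them. Fold changes and calls of the 10 genes are therefore a description of them and not a test. Tests are given for other genes of the same machinery, whose list was also drawn up with earlier results known.

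Liver RNA of 13 mice was sequenced to ask what bile duct ligation (BDL), which stops bile flow and causes cholestatic injury and fibrosis, and inhibition of the microRNA miR-873-5p do to the transcriptome. All mice were of the C57 strain and 3 months old, and the study's methods describe the injected mice as males. The 5 no BDL mice are labelled as without BDL, and no injection is given for them. The 4 miR-Ctrl BDL mice received a control hairpin and the 4 anti-miR-873-5p BDL mice a hairpin inhibitor of miR-873-5p, 60 µg per mouse into the tail vein on days 3 and 5 after ligation, and livers were taken on day 7. By what is described, the groups thus differ in injection as well as in ligation where a BDL group is set against no BDL. The libraries hold 12185333 to 19689037 counts each. All 7 hepatocyte markers looked at, such as Alb and Apoa1, were counted in every group. The authors' table of both BDL groups leaves out miR-Ctrl BDL mouse 3 and anti-miR-873-5p BDL mouse 2, so that comparison has 3 mice per group. The inhibited microRNA, Mir873a, was listed at 0 in every library. These are mRNA libraries, so that does not give the level of the mature microRNA, which the study measured by quantitative PCR.

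Actin cycles between monomers and filaments. Profilin and the beta-thymosins hold monomers, the Arp2/3 complex starts branches on existing filaments, capping proteins stop growth at filament ends, and cofilin severs old filaments so that monomers return to the pool. Transgelins bind along filaments, and vimentin forms a separate intermediate filament network that is typical of mesenchymal cells and leukocytes and largely absent from hepatocytes. In an injured liver, activated stellate cells, infiltrating leukocytes and growing bile ducts all hold more of these proteins than resting hepatocytes do.

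The 10 genes lie on 7 chromosomes of GRCm38, and Capg and Tmsb10 are 394 kb apart on chromosome 6. Starts and ends are those of RefSeq. Promoter windows, 250 bases before to 50 after an annotated start, were found for 9 of the 10 genes, Actb being the exception. The CArG box, the motif of serum response factor, was searched on both strands, and it is in the window of 1 member, Actg1, as against 1.81% of all 27025 genes with a window and 10 of 122 other genes of the actin list described further on. GGGCGG, the core of a GC box, is in 7 of the 9 members, in 96 of those 122 genes and in 38.2% of all genes. TATAAA is in 1 member, Vim, and in 15.7% of all genes, and TGANTCA, an AP-1 motif, is in 0 of 9 members and 8.97% of all genes. The windows of 3 members are shown in 5′ to 3′ direction of the gene, because they are the only one with a CArG box, the only one with TATAAA and that of the gene with the largest fold change after ligation. Capitals mark the CArG box in Actg1, TATAAA in Vim and GGGCGG on either strand in Tagln2. The windows are chr11:120348446-120348745 on the minus strand, chr2:13574061-13574360 on the plus strand and chr1:172499996-172500295 on the plus strand.
Actg1: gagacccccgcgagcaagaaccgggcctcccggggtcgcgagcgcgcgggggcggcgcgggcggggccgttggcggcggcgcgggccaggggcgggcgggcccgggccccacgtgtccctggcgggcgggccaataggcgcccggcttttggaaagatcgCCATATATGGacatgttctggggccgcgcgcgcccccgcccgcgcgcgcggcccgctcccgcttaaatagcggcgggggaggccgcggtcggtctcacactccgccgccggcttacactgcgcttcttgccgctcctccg
Vim: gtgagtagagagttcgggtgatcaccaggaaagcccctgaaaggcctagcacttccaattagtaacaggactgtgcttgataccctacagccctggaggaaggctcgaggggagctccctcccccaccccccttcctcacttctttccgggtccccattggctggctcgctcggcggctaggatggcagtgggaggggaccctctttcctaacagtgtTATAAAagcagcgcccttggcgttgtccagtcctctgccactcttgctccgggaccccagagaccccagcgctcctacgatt
Tagln2: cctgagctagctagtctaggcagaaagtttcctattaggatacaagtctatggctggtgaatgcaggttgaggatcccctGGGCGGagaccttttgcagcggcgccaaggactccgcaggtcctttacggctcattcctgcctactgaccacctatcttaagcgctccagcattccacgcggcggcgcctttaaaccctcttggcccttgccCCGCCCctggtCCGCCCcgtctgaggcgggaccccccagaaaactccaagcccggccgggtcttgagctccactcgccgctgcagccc

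The microRNA that was inhibited is read from chr4:36668556-36668576 on the minus strand. Its mature form is shown because its seed, bases 2 to 8 in capitals, is a main part of its pairing with transcripts.
mmu-miR-873a-5p: gCAGGAACuugugagucuccu
A match of all 7 seed bases, GTTCCTG in the transcript, was looked for in the 3′ untranslated region of the main transcripts of each gene. It was found in 1 of 10 members, Actg1, in 20 of 148 other genes of the actin list and in 13.1% of all 20870 genes. Sites that pair in another way were not looked for, so a gene without the match may still be a target. The Actg1 match is shown with its surroundings, the matching bases in capitals.
Actg1 transcript Actg1-204: ggctggcaaggGTTCCTGaaccagttacc

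Levels are given as normalized counts, which are counts per 1000000 after scaling the 13 libraries to each other, and fold changes come from a fit to each deposited table. Both cytoplasmic actins lay higher in miR-Ctrl BDL livers than in most no BDL livers. Actb (chromosome 5, 142903115 to 142907976) stood at 567, 540, 366, 403 and 633 normalized counts in no BDL mice 1 to 5, at 925, 912, 745 and 926 in miR-Ctrl BDL mice 1 to 4 and at 604, 425, 772 and 754 in anti-miR-873-5p BDL mice 1 to 4. All miR-Ctrl BDL mice were above all no BDL mice, and anti-miR-873-5p BDL mice 1 and 2 lay within the no BDL range. Its log2 fold change against no BDL was 0.83 ± 0.19 (SE) in miR-Ctrl BDL and 0.38 ± 0.24 in anti-miR-873-5p BDL. Actg1 (chromosome 11, 120345687 to 120348495) stood at 569, 176, 152, 144 and 194 in no BDL mice, at 453, 462, 432 and 504 in miR-Ctrl BDL mice and at 250, 361, 457 and 404 in anti-miR-873-5p BDL mice. No BDL mouse 1 had the highest value of all 13 mice, and the other 4 no BDL mice were below every ligated mouse. With that mouse in the fit the log2 fold changes were 0.93 ± 0.39 and 0.61 ± 0.41. Of the 50-base windows of Actg1 transcripts, 37.4% also occur in transcripts of other genes, most of them in the related Gm12715, so reads may have been split between copies.

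The binders of monomers lay higher after ligation, from very different levels in no BDL livers. Pfn1 (chromosome 11, 70651844 to 70656799), profilin, which loads actin with ATP and feeds growing ends, stood at 152, 144, 159, 154 and 168 normalized counts in no BDL mice, at 237, 233, 281 and 227 in miR-Ctrl BDL mice and at 188, 211, 202 and 201 in anti-miR-873-5p BDL mice. The 3 groups did not overlap, with no BDL lowest and miR-Ctrl BDL highest. Its log2 fold change was 0.68 ± 0.10 in miR-Ctrl BDL and 0.39 ± 0.10 in anti-miR-873-5p BDL. Tmsb4x (chromosome X, 167207093 to 167213479), the more abundant beta-thymosin, stood at 70.6, 64.6, 92.1, 66.0 and 161 in no BDL mice, at 220, 371, 163 and 320 in miR-Ctrl BDL mice and at 150, 79.1, 273 and 368 in anti-miR-873-5p BDL mice. No BDL mouse 5 nearly reached the lowest miR-Ctrl BDL mouse and exceeded 2 of the 4 anti-miR-873-5p BDL mice. The log2 fold changes were 1.59 ± 0.33 and 1.29 ± 0.44. Tmsb10 (chromosome 6, 72957347 to 72958748), its close relative, stood at 7.17, 5.62, 6.44, 8.06 and 7.79 in no BDL mice, at 27.2, 31.6, 31.5 and 23.2 in miR-Ctrl BDL mice and at 22.5, 13.2, 38.6 and 37.2 in anti-miR-873-5p BDL mice. Every ligated mouse was above every no BDL mouse, and the spread was widest among anti-miR-873-5p BDL mice. The log2 fold changes were 2.04 ± 0.14 and 2.02 ± 0.29, or 4.10-fold and 4.06-fold. Of the Tmsb10 windows, 27.0% are shared with other genes, most of them Gm9844.

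Among the members that cut or cap filaments, Capg moved more than Cfl1. Cfl1 (chromosome 19, 5490455 to 5494031), cofilin, stood at 167, 171, 173, 155 and 195 normalized counts in no BDL mice, at 268, 262, 268 and 254 in miR-Ctrl BDL mice and at 206, 192, 227 and 229 in anti-miR-873-5p BDL mice. MiR-Ctrl BDL mice were above all others, and anti-miR-873-5p BDL mouse 2 was just below no BDL mouse 5. The log2 fold changes were 0.63 ± 0.10 and 0.34 ± 0.12. Capg (chromosome 6, 72538282 to 72562983), a gelsolin relative that caps filaments without cutting them and is abundant in macrophages, stood at 1.81, 1.24, 2.92, 2.05 and 4.45 in no BDL mice, at 11.4, 17.7, 11.2 and 11.0 in miR-Ctrl BDL mice and at 6.32, 10.5, 12.4 and 15.2 in anti-miR-873-5p BDL mice. Both ligated groups were above no BDL without overlap. The log2 fold changes were 2.38 ± 0.33 and 2.17 ± 0.36, or 5.19-fold and 4.50-fold.

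Arpc1b, Tagln2 and Vim completed the set. Arpc1b (chromosome 5, 145114256 to 145128186), the Arp2/3 subunit that leukocytes depend on, stood at 39.7, 32.4, 51.0, 43.2 and 71.1 normalized counts in no BDL mice, at 126, 149, 102 and 143 in miR-Ctrl BDL mice and at 93.6, 72.9, 93.6 and 105 in anti-miR-873-5p BDL mice. All ligated mice were above all no BDL mice, though anti-miR-873-5p BDL mouse 2 by little. The log2 fold changes were 1.48 ± 0.22 and 0.97 ± 0.22. Part of its exons (18.2% of bases) overlaps Pdap1 on the other strand, as 16.5% of those of Cfl1 overlap Snx32, and reads of the 2 strands cannot be told apart with a kit that does not mark strand. Tagln2 (chromosome 1, 172500246 to 172507375) stood at 12.6, 9.34, 14.3, 15.2 and 18.2 in no BDL mice, at 124, 130, 95.3 and 97.9 in miR-Ctrl BDL mice and at 61.1, 64.0, 121 and 98.0 in anti-miR-873-5p BDL mice. It had the largest fold change of the 10 genes, 8.17-fold (log2 3.03 ± 0.19) in miR-Ctrl BDL and 6.29-fold (log2 2.65 ± 0.25) in anti-miR-873-5p BDL, with no overlap between ligated and no BDL mice. Vim (chromosome 2, 13574311 to 13582826) stood at 15.5, 10.4, 13.1, 14.5 and 22.5 in no BDL mice, at 51.5, 87.4, 57.6 and 67.5 in miR-Ctrl BDL mice and at 60.1, 39.8, 59.7 and 76.4 in anti-miR-873-5p BDL mice. The ligated groups overlapped each other and not the no BDL group. The log2 fold changes were 2.14 ± 0.23 and 1.98 ± 0.24.

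**Figure D1:**
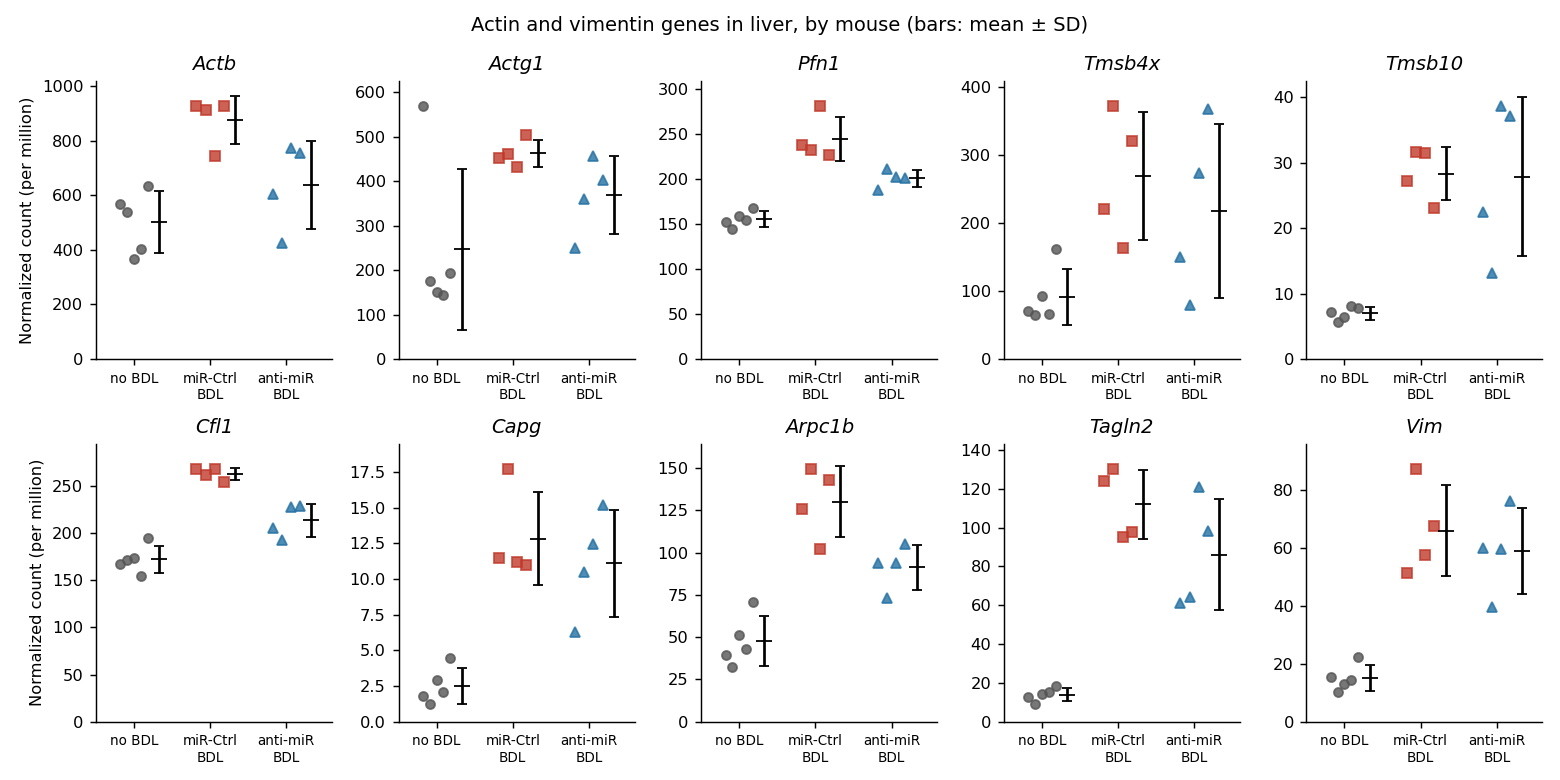
Normalized counts (per 1000000, vertical axes from 0) of the 10 genes in the 13 mice, with 1 point per mouse and bars for the mean ± SD of each group (n = 5, 4 and 4). Ligated mice sit above no BDL mice in most panels, no BDL mouse 1 stands alone in Actg1 at 569, and miR-Ctrl BDL lies above anti-miR-873-5p BDL without overlap in Pfn1 and Cfl1. How many of all genes separate the BDL groups on this scale was not counted.

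By edgeR's quasi-likelihood test at an adjusted p of 0.05, 9 of the 10 members were called higher in miR-Ctrl BDL than in no BDL, all but Actg1, where 19.1% of the 13072 genes tested were called higher and 16.6% lower. Values did not overlap between these groups for 9 members, against 14.8% of all genes in that direction. Against no BDL, 6 members were called higher in anti-miR-873-5p BDL (Pfn1, Tmsb10, Capg, Arpc1b, Tagln2 and Vim), where 13.1% of 13130 genes were called higher and 8.44% lower. The same 6 did not overlap, against 10.1% of all genes. Since these comparisons took part in the choice of the members, the counts describe them and are not a test. Both comparisons also use the same no BDL mice. The median log2 fold change of the members was 1.54 and 1.13 in the 2 comparisons, beside -0.01 in both over all genes tested.

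The size of these changes depended on the scaling. With library size alone, the median of all genes moved to 0.79 in miR-Ctrl BDL and 0.82 in anti-miR-873-5p BDL, the share of all calls that were higher went from 53.4% to 97.2% and from 60.8% to 98.7%, and the member median to 2.34 and 1.98. Relative to the median of all genes it stayed at 1.55 in the first comparison and went from 1.14 to 1.16 in the second. A plain share of reads amounts to scaling by library size alone. By that share the 10 genes took 94.3, 65.4, 81.7, 64.4 and 94.7 of 100000 counts in no BDL mice, 300.3, 331, 216 and 288 in miR-Ctrl BDL mice and 183, 151, 276 and 307 in anti-miR-873-5p BDL mice. All 8 ligated mice were above all 5 no BDL mice, the direction of most calls over all genes under that scaling.

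**Figure D2:**
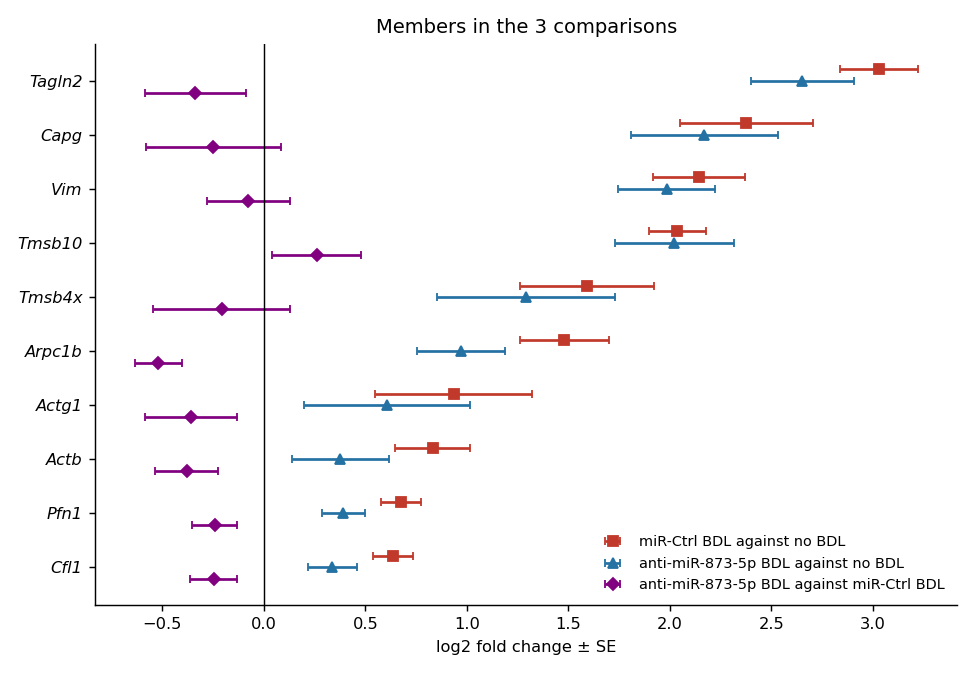
Log2 fold change ± SE (horizontal axis) of the 10 genes in the 3 comparisons, ordered by the change in miR-Ctrl BDL against no BDL (9 mice), with anti-miR-873-5p BDL set against the same no BDL mice (9 mice) and against miR-Ctrl BDL (6 mice). Tagln2 leads at 3.03 and Cfl1 is last at 0.63, and in the third comparison 9 of 10 points are below 0.

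Levels of different genes were compared per kilobase of the longest main transcript. In no BDL livers the mean order was Actb (261 ± 58.8 SD per kilobase, n = 5), Pfn1 (181 ± 10.2), Actg1 (127 ± 92.6), Tmsb4x (118 ± 53.3) and Cfl1 (73.1 ± 6.13), followed by Arpc1b, Tmsb10, Tagln2 and Vim at 6.93 to 15.3 and Capg at 1.78. Neighbours in this order overlapped between mice except Tmsb4x with Cfl1, Cfl1 with Arpc1b and Vim with Capg. In miR-Ctrl BDL livers Tmsb4x came second (350 ± 123 SD, n = 4) behind Actb (457 ± 46.0), and Tagln2, at 70.5 ± 11.2, was above Arpc1b and Tmsb10 without overlapping its neighbours Cfl1 and Arpc1b. In anti-miR-873-5p BDL livers the order differed in 1 place, Tmsb10 (40.4 ± 17.7) before Arpc1b (29.4 ± 4.32), which overlapped. Of the 5 most abundant genes in no BDL livers only Tmsb4x had a log2 fold change above 1 in miR-Ctrl BDL, and all 5 scarcer ones did. Actb took a median of 40.1% of the members' counts in no BDL mice, 35.2% in miR-Ctrl BDL mice and 33.6% in anti-miR-873-5p BDL mice, with overlapping ranges.

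Ratios of 2 genes within a mouse do not depend on the scaling. Each pair holds a member chosen with differences after ligation known, so separation of groups here is a description and not a test. Arpc1b and Arpc1a encode alternative versions of the same Arp2/3 subunit. Arpc1b per kilobase was 0.371 to 0.709 times Arpc1a in no BDL mice, 0.938 to 1.56 times in miR-Ctrl BDL mice and 0.720 to 1.11 times in anti-miR-873-5p BDL mice, so no BDL and ligated mice did not overlap. Arpc1a itself, picked for this contrast after its values were seen, had a log2 fold change of 0.08 ± 0.08 in miR-Ctrl BDL and 0.06 ± 0.08 in anti-miR-873-5p BDL (edgeR, adjusted p = 0.445 and 0.664). Tagln2 was 0.781 to 2.13 times Tagln, the smooth muscle transgelin, in no BDL mice, 8.22 to 21.7 times in miR-Ctrl BDL mice and 5.18 to 11.5 times in anti-miR-873-5p BDL mice. The mean level of Tagln itself was 9.31 ± 3.98 normalized counts (SD) in no BDL, 10.7 ± 4.78 in miR-Ctrl BDL and 12.5 ± 5.48 in anti-miR-873-5p BDL. Capg was 0.0845 to 0.558 times Gsn, gelsolin, in no BDL mice and 1.17 to 2.47 times in miR-Ctrl BDL mice, while anti-miR-873-5p BDL mice spanned 0.496 to 1.92 and overlapped both. Vim was 0.0168 to 0.0315 times Actb without BDL and 0.0487 to 0.0887 times over both ligated groups. The ratios of Tmsb10 to Tmsb4x (0.0537 to 0.136, 0.0805 to 0.215 and 0.113 to 0.186) and of Actb to Actg1 (1.01 to 3.31, 1.75 to 2.08 and 1.20 to 2.45) overlapped between no BDL and both ligated groups.

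**Figure D3:**
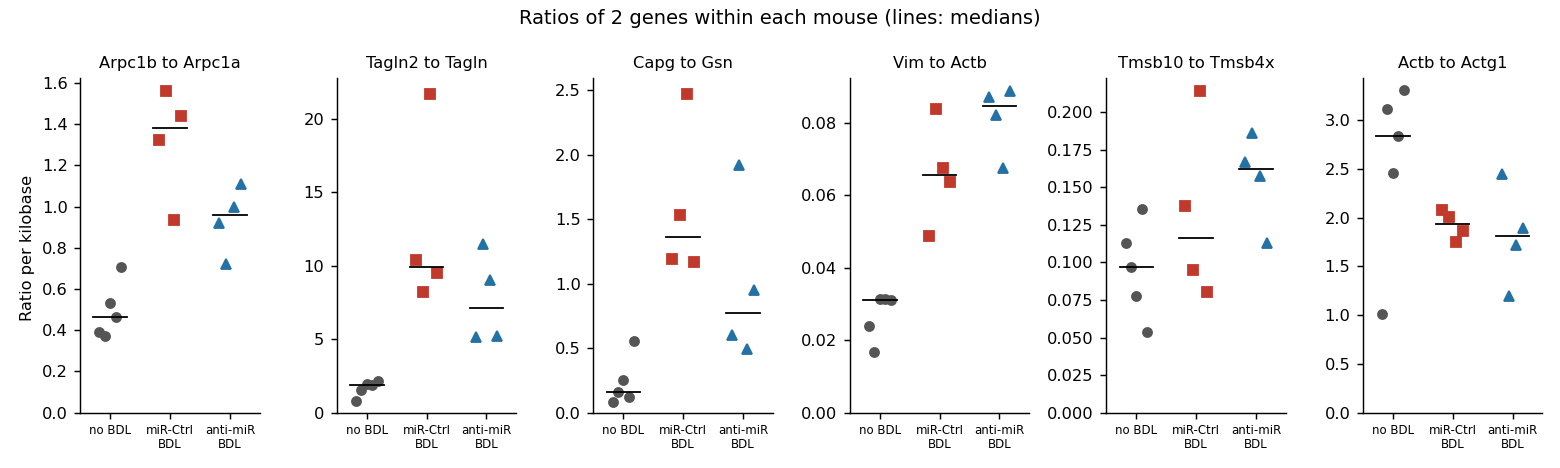
Ratio of 2 genes per kilobase of transcript (vertical axes from 0) within each of the 13 mice, with 1 point per mouse and a line at each group's median. For Arpc1b to Arpc1a, Tagln2 to Tagln and Vim to Actb all ligated mice are above all no BDL mice, and for Tmsb10 to Tmsb4x and Actb to Actg1 the groups overlap.

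The wider actin machinery was followed in 148 further genes, which with the members make a list of 158 genes in 14 roles. These genes too were listed with earlier results of these data known, so their counts are not an independent test. In miR-Ctrl BDL against no BDL, 130 of the 148 had enough counts to be tested and 78 rose, 0 fell and 52 did not pass, with a median log2 fold change of 0.55. DESeq2's Wald test called 86 higher and 2 lower, and 92 genes had an unadjusted p under 0.05 in edgeR. Over all 13072 genes tested, edgeR called 19.1% higher and 16.6% lower, and DESeq2 called 2805 higher and 2329 lower. Of these 13072 genes, 5973 had an unadjusted p under 0.05 in edgeR. In anti-miR-873-5p BDL, again against no BDL, 43 of 131 rose, 1 fell (Pls3) and 87 did not pass, with a median of 0.38. Of all 13130 genes tested there, 13.1% were called higher and 8.44% lower. The count of 43 moved with single mice. It was 28 without no BDL mouse 3, 67 without anti-miR-873-5p BDL mouse 2, 21 without mouse 3 and 25 without mouse 4 of that group. The count over all genes tested moved with it, from 1715 called higher to 1097, 2500, 904 and 948 in the same order. Whether the response differed between the ligated groups is addressed by the direct comparison given further on.

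Among actins, the muscle isoforms Acta2 and Acta1 both rose in miR-Ctrl BDL, from no BDL means of 4.14 ± 2.43 and 9.22 ± 1.52 normalized counts (SD, n = 5). Their log2 fold changes were 1.11 ± 0.37 (adjusted p = 0.0412) and 0.94 ± 0.15 (adjusted p = 0.0015, edgeR with Benjamini-Hochberg adjustment). Windows shared with other genes were looked for in the members only. Whether reads of other actins were counted in Acta1 and Acta2 was therefore not checked. Of the monomer binders 3 of 4 tested rose, with Twf2, a twinfilin, at log2 1.35 ± 0.28 (adjusted p = 0.00526) and the second profilin Pfn2 at 0.09 ± 0.39 (adjusted p = 0.878). Severing and disassembly factors were mixed. There, 6 of 14 rose, led by the leukocyte coronin Coro1a (2.10 ± 0.30, adjusted p = 0.000854), and Gsn had the lowest value, -0.54 ± 0.36 (adjusted p = 0.269). Of the capping proteins 5 of 9 rose, Eps8 at 1.05 ± 0.30 (adjusted p = 0.0221).

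Most genes of the Arp2/3 complex rose, by small steps. Of the 8 other than Arpc1b 6 passed the test, with a median log2 fold change of 0.35 and the largest in Arpc5 (0.53 ± 0.09, adjusted p = 0.00144), beside 1.48 in Arpc1b, and Arpc5l stood at -0.22 ± 0.10 (adjusted p = 0.109). Of the activators of the complex 8 of 15 rose, led by Nckap1l, the blood cell form of a WAVE complex subunit (2.21 ± 0.47, adjusted p = 0.0054). Formins and other nucleators gave 5 of 12 tested, of which the blood cell formin Fmnl1 had the highest value (2.26 ± 0.31, adjusted p = 0.000659), with Fmn1 at -0.32 ± 0.35 (adjusted p = 0.517).

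Crosslinkers and bundlers gave 11 of 16. Filamin C, Flnc, had the highest value of the 130 genes tested, 3.72 ± 0.50 (adjusted p = 0.000606), from a mean of only 0.0890 normalized counts in no BDL livers to 1.23 ± 0.37 (SD, n = 4), and plastin 3, Pls3, stood at -0.24 ± 0.10 (adjusted p = 0.0881). Tropomyosins, which coat filaments, gave 3 of 4, with Tpm1 at 1.93 ± 0.18 (adjusted p = 0.000126, the lowest of the 130) and Tpm2 at -0.62 ± 0.34 (adjusted p = 0.185). Myosin II gave 4 of 8, with the non-muscle heavy chain Myh9 at 1.41 ± 0.14 (adjusted p = 0.000184) and the light chain Myl9 at -0.24 ± 0.30 (adjusted p = 0.57).

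Membrane linkers gave 9 of 12, with ezrin, Ezr, which ties actin to the apical membrane of epithelia, at 2.22 ± 0.25 (adjusted p = 0.000288) and Tln2 at -0.54 ± 0.20 (adjusted p = 0.0539). Of serum response factor and its coactivators 2 of 3 rose, Mrtfa at 1.24 ± 0.29 (adjusted p = 0.00884), while Srf itself stood at -0.11 ± 0.22 (adjusted p = 0.72). Beside Vim, 2 of 6 other intermediate filament genes rose, with Lmna, lamin A/C, at 1.42 ± 0.15 (adjusted p = 0.000212) and Lmnb2 at -0.17 ± 0.24 (adjusted p = 0.619). The remaining genes that were lowest in their role and did not pass were Add3 (-0.12 ± 0.26, adjusted p = 0.76) and Wipf2 (-0.27 ± 0.12, adjusted p = 0.114).

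In most roles fewer genes passed the test in anti-miR-873-5p BDL than in miR-Ctrl BDL, both against no BDL. The same held over all genes tested, of which 13.1% and 19.1% were called higher, and no difference between such counts was tested. Tropomyosins again gave 3 of 4 and myosin II 4 of 8, the Arp2/3 complex gave 1 of 8, its activators 3 of 15, severing factors 3 of 14 and crosslinkers 4 of 16. Tpm1 rose by log2 1.54 ± 0.20 (adjusted p = 0.00182), Ezr by 1.94 ± 0.28 (adjusted p = 0.00261) and Lmna by 1.32 ± 0.15 (adjusted p = 0.00106), while Pls3 fell by 0.44 on the log2 scale (SE 0.14, adjusted p = 0.0478). Acta2, at 1.21 ± 0.41, did not pass (adjusted p = 0.0621), nor did Acta1, at 0.27 ± 0.24 (adjusted p = 0.455).

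**Figure D4:**
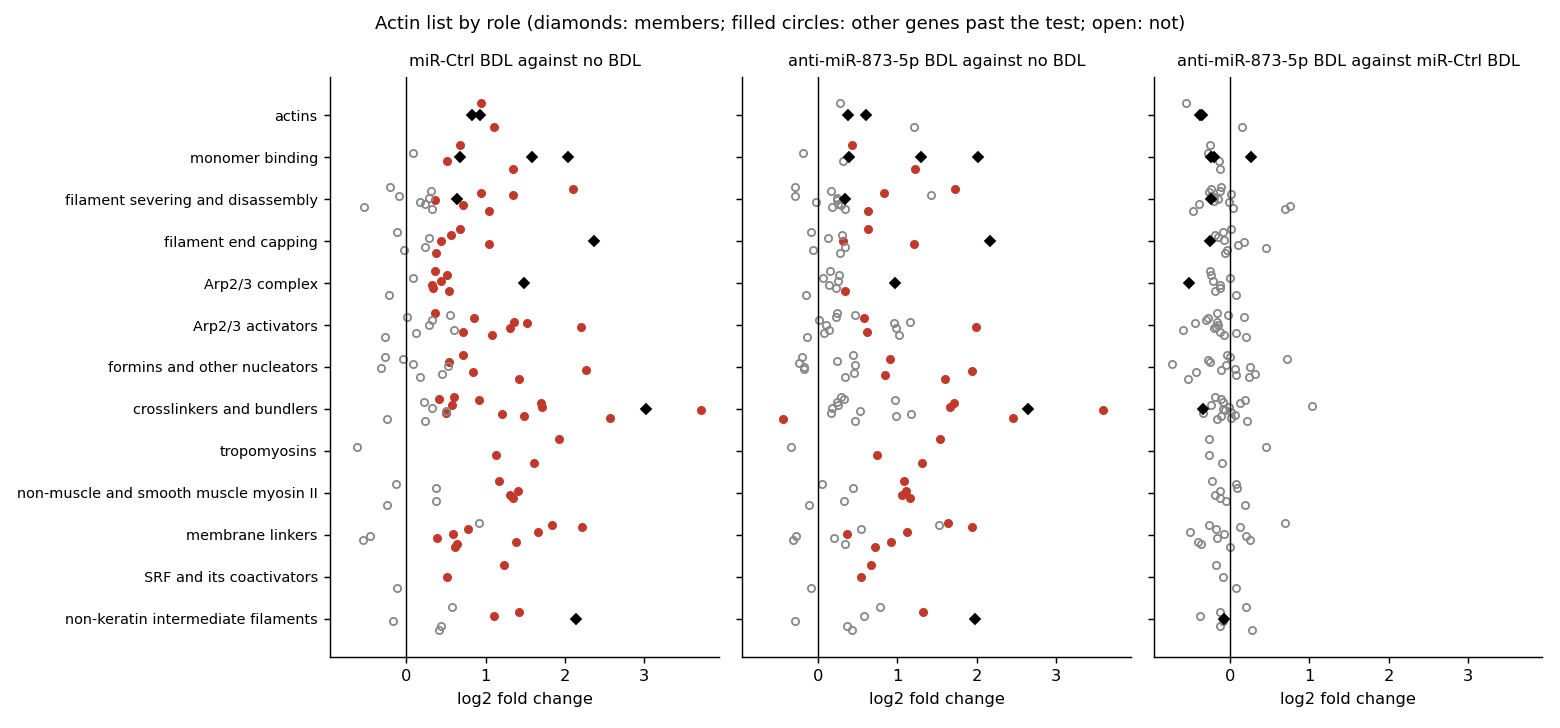
Log2 fold change (horizontal axis) of the tested genes in 13 of the 14 roles of the actin list (vertical axis), in the 3 comparisons. Diamonds are the 10 members, filled circles other genes past an adjusted p of 0.05 and open circles genes that were not. In the first panel 66 of 113 circles are filled, all on the higher side. Filled circles are 36 higher and 1 lower of 114 in the second and 0 of 119 in the third. Over all genes tested, 19.1% were called higher and 16.6% lower in the first comparison, 13.1% and 8.44% in the second and 0% in the third.

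Set directly against miR-Ctrl BDL, with 3 mice per group, anti-miR-873-5p BDL gave 0 calls in edgeR among 13746 genes (0%), and so among the members and the 136 list genes tested. At an unadjusted p under 0.05 there were 863 genes, 2 of them members (Actb and Arpc1b) and 15 of the list, and DESeq2's Wald test called 30 genes, 19 higher and 11 lower, of which 1 was a member, Arpc1b, and 0 were list genes. The members' counts are a description here too. Most members had lower values in anti-miR-873-5p BDL. Their log2 fold changes in edgeR were -0.52 ± 0.12 in Arpc1b, -0.38 ± 0.15 in Actb, -0.36 ± 0.23 in Actg1, -0.34 ± 0.25 in Tagln2, -0.25 ± 0.12 in Cfl1, -0.25 ± 0.33 in Capg, -0.24 ± 0.11 in Pfn1, -0.21 ± 0.34 in Tmsb4x and -0.08 ± 0.20 in Vim, and 0.26 ± 0.22 in Tmsb10. The median was -0.25, beside 0.01 over all genes tested, and without any 1 mouse it was between -0.40 and -0.13.

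Values of 5 members, Actb, Actg1, Pfn1, Cfl1 and Arpc1b, were lower in all 3 anti-miR-873-5p BDL mice than in all 3 miR-Ctrl BDL mice, against 4.77% of all genes in that direction. These values were scaled within the table of both BDL groups; on the scale of all 13 mice used for the levels, Actg1 of anti-miR-873-5p BDL mouse 3 (457) passed that of miR-Ctrl BDL mouse 1 (453). Of the 136 other list genes 30 were lower without overlap and 1 was higher, with 5 of 8 in the Arp2/3 complex among the lower ones and a median log2 fold change of -0.12. How many members separated depended on the scaling and the mice. With library size alone it was 2, Actb and Arpc1b, and 4 mice per group left 2, Pfn1 and Cfl1, or 0 where library size alone was used as well. The share of all genes without overlap was not counted under these other settings, so these counts have no background to be read against. With all 4 mice the mean of Tmsb10 was lower too under TMM and DESeq2 size factors, and higher under both scalings by library size.

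Mice within a group differed in the members and in the marker sums, and any link between the 2 was not tested. No BDL mouse 5 was the highest of its group in 8 of 10 members, and its summed level of 10 leukocyte markers, such as Ptprc and Cd68, was 195 normalized counts against 42.3 to 97.8 in the other 4. Without no BDL mice 1 and 5, a choice made after seeing the data, the member medians were 1.75 and 1.37 and the counts of list genes that rose 66 and 33. Over all genes, 2231 and 1340 were then called higher. Among ligated mice, the pair that the authors left out of the table of both BDL groups was low in some members and high in others. MiR-Ctrl BDL mouse 3 was the lowest of its group in 5 members and the highest in Pfn1 and Cfl1. Anti-miR-873-5p BDL mouse 2 was the lowest in 6 and the highest in Pfn1. MiR-Ctrl BDL mouse 4 and anti-miR-873-5p BDL mouse 1 were each the lowest in 4.

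Of 6 lists of cell type markers, those of leukocytes, cholangiocytes and stellate cells gave genes called higher after ligation. Those of hepatocytes, endothelial cells and, but for Pf4, platelets gave none. Of the leukocyte markers 8 of 8 tested rose in miR-Ctrl BDL and 4 of 8 in anti-miR-873-5p BDL, with summed levels of 42.3 to 195 in no BDL, 222 to 453 in miR-Ctrl BDL and 137 to 413 in anti-miR-873-5p BDL mice. The T cell and B cell markers Cd3e and Cd79a had too few counts to be tested against no BDL. They reached at most 1.38 and 0.945 normalized counts in any mouse. All 6 cholangiocyte markers, such as Krt19 and Krt7, rose in both, with sums of 45.9 to 135, 484 to 1727 and 233 to 1673. Spp1 alone made up 76.1% to 96.6% of these sums, and the other 5 markers summed to 10.9 to 15.0, 43.4 to 81.0 and 38.4 to 95.7. Of 6 markers of stellate cells and fibroblasts, such as Col1a1 and Pdgfrb, 4 and 5 rose, with sums of 135 to 209, 256 to 768 and 232 to 945. Of 7 hepatocyte markers 3 and 1 fell, and of 5 endothelial markers 0 and 1 fell, and no gene of either list rose. Platelet markers summed to 3.72 to 8.88, 4.64 to 9.998 and 4.83 to 8.31, with Pf4 alone called, higher in anti-miR-873-5p BDL. No marker was at 0 in all mice of a group. In bulk liver, fewer cells of a type and less RNA per cell cannot be told apart, and the part of cell composition in the members' changes was not tested. Between the BDL groups 0 of the 36 markers tested were called.

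**Figure D5:**
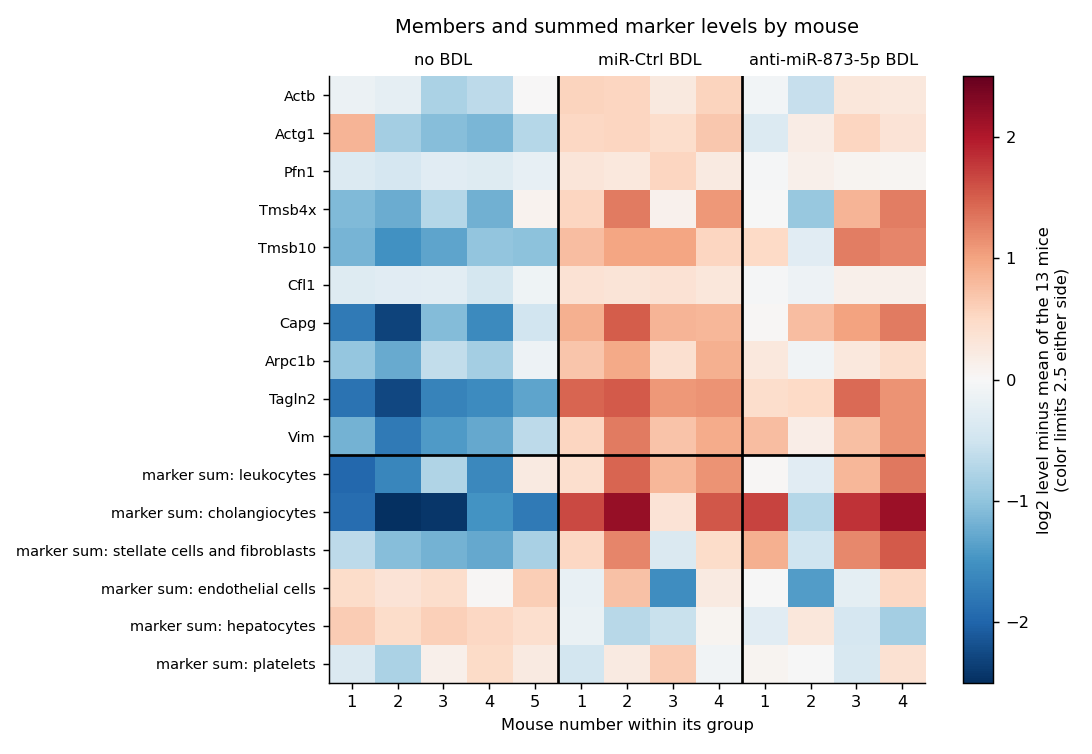
Log2 level of each of the 10 genes and of the summed level of each marker list (rows) in the 13 mice (columns, by group), as the difference from the mean over all mice, with colour limits 2.5 on either side of 0. Ligated mice are mostly red in the rows of the 10 genes and of leukocyte, cholangiocyte and stellate markers, anti-miR-873-5p BDL mouse 2 is blue in several of them, the cholangiocyte row is mostly Spp1, and no BDL mice 1 (Actg1) and 5 stand apart from their group.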

How the data were processed

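Liver RNA of 13 mice was sequenced with the TruSeq RNA v2 kit as single reads of 50 nt. The authors mapped the reads to mm10 with TopHat and deposited raw counts per Entrez gene, in 1 table per comparison. The submitters' processing notes also name CASAVA 1.8.2, FastQC, Trim Galore and DESeq2, and the counting program is not given in the sources used here. Mice were grouped by their labels, and 0 columns were left out. The 10 members and all gene lists were chosen with earlier results of these data known. The genes named are the members and, in each role, the tested gene with the highest and the lowest log2 fold change in miR-Ctrl BDL against no BDL, and others are said to be chosen afterwards. Tagln, a partner in the ratios, is also outside this rule. The genes of 1 role count in the totals of the list but are not reported here by name or role.

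Genes were kept by filterByExpr and libraries scaled by TMM using edgeR 4.0.16, which builds on limma 3.58.1, under R 4.3.3, and groups compared with its quasi-likelihood test and Benjamini-Hochberg adjustment over all genes tested. The standard error of a log2 fold change is its size over the root of the test's F statistic. Levels used 1 TMM scaling of all mice over the 22246 genes whose counts are identical in the tables, and counts of Actg1 and Capg differ between tables by at most 14 and 2 reads. The alternatives were DESeq2 1.42.0, other scalings and filters, 1 fit of all groups, the mouse number as a block, and leaving out mice. The fits were tested on simulated counts. Promoter and microRNA sequences are RefSeq's (GRCm38.p6), and transcripts are those of GENCODE M21, of which the APPRIS principal ones were taken as main transcripts.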

Additional observations from a re-analysis of the deposited data

Results flagged for a closer look

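Among 126 sets of values checked with Dixon's test (members, named genes and marker sums in each group), 9 had a mouse far from the others, where chance gives about 1 in 20. Of the members, Actb in miR-Ctrl BDL mouse 3 was 745 normalized counts with the next lowest at 912, Actg1 in no BDL mouse 1 was 569 with the next highest at 194, Tmsb4x in no BDL mouse 5 was 161 with the next at 92.1, and Capg in miR-Ctrl BDL mouse 2 was 17.7 with the next at 11.4. No BDL mouse 1 also stood apart in Acta2, at 8.38 with the next at 3.50. No BDL mouse 5 stood apart in Fmnl1 (3.34 with the next at 1.64) and Myh9 (175 with the next highest at 132). Anti-miR-873-5p BDL mouse 1 was low in Arpc5 (74.8 with the next lowest at 82.9) and in Wipf2 (15.1 with the next at 17.0). No cause of these values was tested.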

How the results depend on the processing

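The direction of every member median was the same under all alternatives. The cause of the changes listed here was not tested. With library size alone the member medians against no BDL were 2.34 in miR-Ctrl BDL and 1.98 in anti-miR-873-5p BDL, and without the 20 genes with the most counts 1.90 in the first. In anti-miR-873-5p BDL the list genes that rose were then 121 and 95, and 0 fell under either scaling or with all genes of at least 1 count. Of all 13130 genes tested, these 2 scalings called 10063 and 4410 higher and 131 and 335 lower there. DESeq2's Wald test called 2 list genes lower in each of these comparisons, 1 fit of all groups 1 and 2, and an adjusted p of 0.1 gave 3 and 2. Over all genes, the same settings called 2329 and 1521, 2068 and 1312, and 2790 and 1770 lower. Leaving out 1 mouse at a time gave 60 to 87 and 21 to 67 list genes higher, 0 to 3 and 0 to 2 lower, and member medians of 1.39 to 1.79, 0.90 to 1.39 and -0.40 to -0.13 in the 3 comparisons. Over all genes, the 2 comparisons against no BDL then had 2036 to 2999 and 904 to 2500 called higher. Lower calls were 1731 to 2711 and 357 to 1817. Without no BDL mice 1 and 5, chosen after seeing the data, 1 and 0 list genes fell.

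The mouse number as a replicate block gave 66 and 40 list genes higher and 1 and 0 lower, with member medians of 1.76, 1.28 and -0.26, and 0 calls between the BDL groups. Over all genes, the block gave 2168 and 1449 calls higher and 1895 and 746 lower against no BDL. Deviations of same-numbered mice had correlations of -0.20 to 0.09 against no BDL. Between the BDL groups they were 0.56, -0.39, -0.35 and 0.20 for mice 1 to 4. The signs were mixed, so the numbers were not taken as pairs. Between the BDL groups every alternative in edgeR, and DESeq2, gave 0 list genes. In the fit of all groups, and with all 4 mice of both BDL groups, Actg1 and Capg were left out because their counts differ between tables. With 3 mice per group small changes are hard to detect.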
